A study of Mus musculus with 6 samples.

Results

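The metabotropic glutamate receptor genes examined here were Grm2, Grm3, Grm4, Grm5, Grm7 and Grm8. They were taken by symbol from a table of 23235 mouse genes, and all 6 were found there and had been tested by the authors. RNA came from the hippocampus of 3 male Nes-cKO mice (Rbfox1 fl/fl; Nes/+) and 3 male wildtype mice (Rbfox1 fl/fl; +/+), at an age of 60 to 70 days. In both groups the Rbfox1 alleles were flanked by loxP sites. Only Nes-cKO mice carried Cre recombinase, whose Nestin promoter is active in neural progenitors, so that neurons and most glia derive from recombined cells. An effect of Cre itself and one of the deletion cannot be told apart. The gene Rbfox1 encodes an RNA-binding protein that acts on splicing in the nucleus and on messenger RNA in the cytoplasm. The files hold 1 pooled value per gene and genotype, with no value per mouse, so the levels below have no replicate error. Levels are the authors' FPKM, which is scaled to transcript length and library depth, and sequencing depth is not given in the files. A gene was called changed where the q-value of the authors' deposited table, adjusted by them over all genes they tested, was at most 0.05. A tested gene that reached 1 FPKM in either genotype is called expressed below.

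Metabotropic glutamate receptors are G-protein-coupled receptors that turn synaptic glutamate into slow signals. Group I receptors, here Grm5, couple to Gq and phospholipase C and sit mainly around postsynaptic sites. Group II (Grm2, Grm3) and group III (Grm4, Grm7, Grm8) receptors couple to Gi and Go, lower cyclic AMP and are found largely on axons and terminals, where they restrain transmitter release. In the hippocampus Grm2 is typical of dentate granule cells and their mossy fibres, Grm3 is shared with astrocytes, and Grm7 lies at the active zone of many terminals.

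Of the 6 receptor genes, Grm2 and Grm4 rose in Nes-cKO hippocampus and the other 4 did not pass the test. Across all genes tested in the authors' deposited table, 6.92% were called, 4.62% higher and 2.29% lower in Nes-cKO. Among tested genes whose wildtype level lay within the range of the receptors, 1.97 to 29.1 FPKM, 6.39% were called, 4.04% higher and 2.36% lower. None of the 6 was called lower. The log2 ratios of Nes-cKO over wildtype had a median of 0.14 for the 6 receptors and of 0.03 for all expressed genes. The deleted gene itself, Rbfox1, stood at 23.0 FPKM in Nes-cKO and 67.5 FPKM in wildtype, 34.0% of the wildtype level. This value is for the whole gene, and its exons were not separated.

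**Figure D1:**
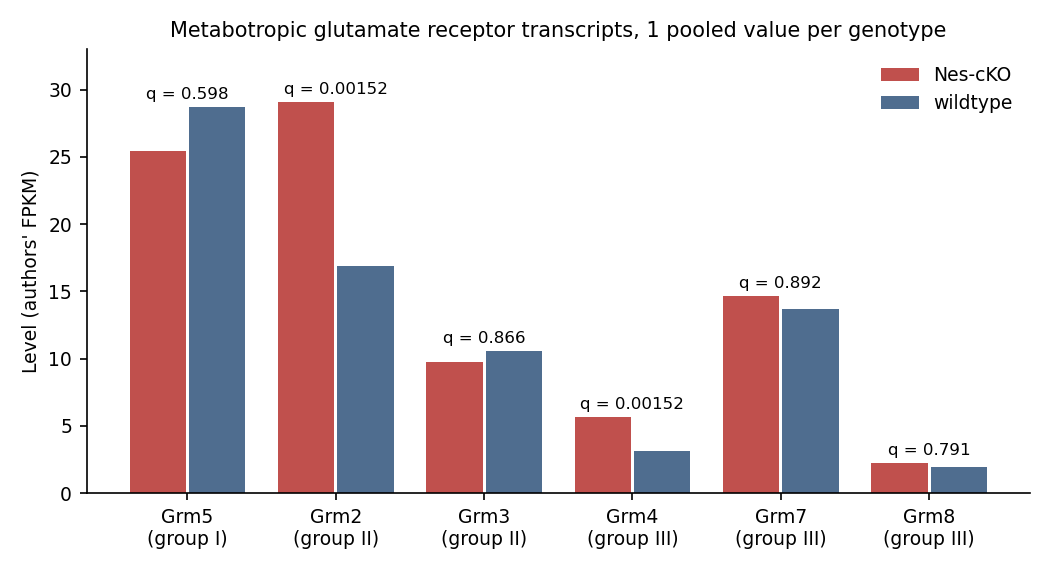
Level of each receptor transcript in the authors' FPKM (vertical axis, from 0), with Nes-cKO bars left of wildtype bars and the authors' q-value above each pair. Each bar is 1 pooled value and has no error bar. Grm2 at 29.1 against 16.9 FPKM and Grm4 at 5.67 against 3.12 FPKM are the pairs past the threshold.

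The group I receptor gene Grm5 (mm9 chr7:94732678-95283573) encodes the main Gq-coupled metabotropic receptor of the forebrain. Its transcript stood at 25.5 FPKM in Nes-cKO and 28.7 FPKM in wildtype, 88.7% of the wildtype level. The log2 ratio was -0.17, and the authors' deposited table gave p = 0.134 and q = 0.598, so no change was called. Among the 4 receptors that were not called, Grm5 had the smallest p-value, and 3362 of the tested genes had a smaller one.

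The group II pair parted. Grm2 (mm9 chr9:106546866-106558440), a presynaptic receptor of mossy fibres, had 29.1 FPKM in Nes-cKO and 16.9 FPKM in wildtype. That is a 1.72-fold rise, or 0.78 on the log2 scale, with a test score of 3.66, p = 5e-05 and q = 0.00152 in the authors' deposited table. This p-value is the smallest the table holds and is shared by 491 genes, so it does not rank Grm2 among them. Grm3 (mm9 chr5:9485236-9725352), which neurons and astrocytes both express, had 9.76 FPKM in Nes-cKO and 10.6 FPKM in wildtype, with q = 0.866 in the authors' deposited table. Its paralog Grm2 thus had 2.98 times the level of Grm3 in Nes-cKO and 1.60 times in wildtype. Whether this difference between the paralogs exceeds the variation between mice was not tested, because the files give no value per mouse.

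Of the group III genes, Grm4 was called and its paralogs were not. Grm4 (mm9 chr17:27559333-27640249), best known from cerebellar granule cells and also found on hippocampal terminals, had 5.67 FPKM in Nes-cKO and 3.12 FPKM in wildtype. The rise was 1.82-fold, or 0.86 on the log2 scale, with a test score of 3.11, p = 5e-05 and q = 0.00152 in the authors' deposited table. Grm7 (mm9 chr6:110595592-111517224), a low-affinity receptor of the active zone, had 14.7 FPKM in Nes-cKO and 13.7 FPKM in wildtype, with q = 0.892 in the authors' deposited table. Grm8 (mm9 chr6:27225121-28084369), a high-affinity presynaptic receptor, had 2.23 FPKM in Nes-cKO and 1.97 FPKM in wildtype, with q = 0.791 in the authors' deposited table. Receptor genes without a call, 4 in all, had log2 ratios between -0.17 and 0.18.

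The rises of Grm2 and Grm4 lay somewhat above the median of the genes called higher. The 692 genes called higher had a median ratio of 1.61, and 288 of them had a greater ratio than Grm2 and 239 a greater ratio than Grm4. In absolute level, Grm2 differed by 12.2 FPKM between the genotypes (Nes-cKO minus wildtype) and Grm4 by 2.55 FPKM.

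**Figure D2:**
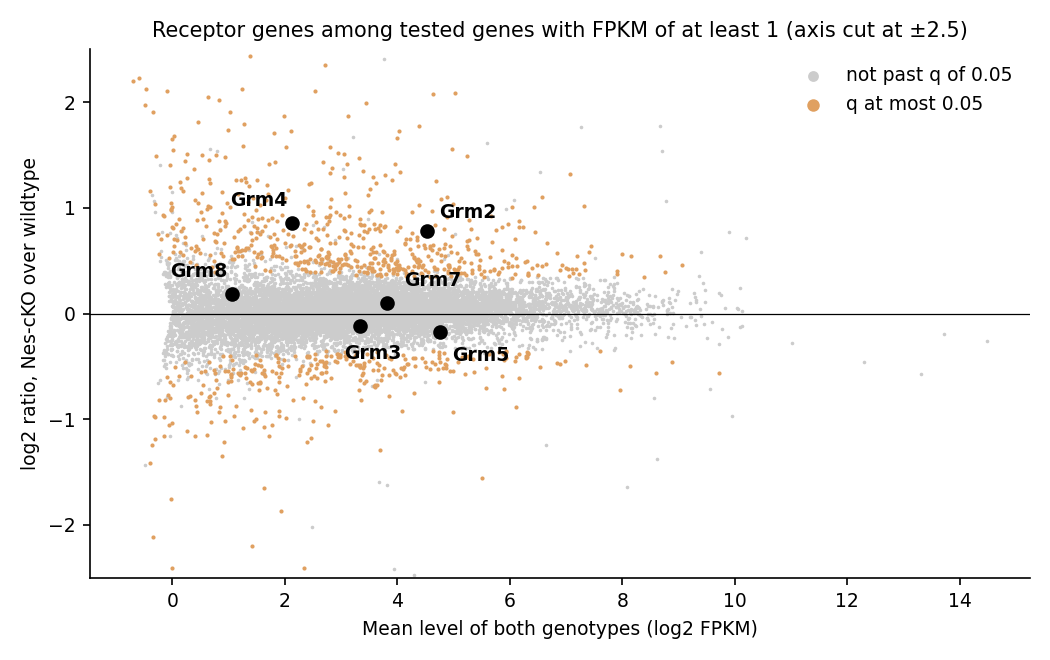
For each expressed gene with a finite ratio, the vertical axis gives log2 of Nes-cKO over wildtype FPKM. The horizontal axis gives log2 of the mean FPKM of both genotypes. The vertical axis is cut, so genes beyond its range are not shown. Black points are the 6 receptors. Grm2 and Grm4 lie among the genes past a q of 0.05, and Grm3, Grm5, Grm7 and Grm8 lie between -0.17 and 0.18.

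The order of the receptor transcripts differed between the genotypes at the top only. In Nes-cKO the order was Grm2, Grm5, Grm7, Grm3, Grm4 and Grm8, and in wildtype Grm5 stood above Grm2 with the rest in the same order. Neighbours in these orders cannot be separated by a spread, since each level is 1 pooled value. The 6 levels summed to 86.9 FPKM in Nes-cKO and 74.9 FPKM in wildtype. Grm2 made up 33.5% of this sum in Nes-cKO and 22.5% in wildtype, while Grm5 made up 29.3% and 38.3% in the same order. The group II sum was 38.9 FPKM in Nes-cKO and 27.5 FPKM in wildtype, and the group III sum was 22.6 and 18.8 FPKM. Without Grm2 and Grm4, the remaining 4 receptors summed to 52.1 FPKM in Nes-cKO and 54.9 FPKM in wildtype. Ranked among all tested genes by level, Grm2 had a percentile of 84.6 in Nes-cKO and of 74.3 in wildtype, and Grm4 one of 45.2 in Nes-cKO and of 32.9 in wildtype.

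No alternative splicing event of the 6 receptor genes was listed. The 4 deposited splicing tables hold 249 cassette exons, 31 alternative 3' splice sites, 35 alternative 5' splice sites and 5 retained introns, and the number of events under any of the 6 symbols or their synonyms was 0 in each. Only events with a difference in inclusion of over 10 percentage points are in these tables, so smaller differences and events that could not be measured are not covered.

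Because Rbfox proteins bind the RNA word UGCAUG, the 3' untranslated region of each receptor transcript was searched for it on the sense strand, written as DNA (TGCATG). The transcript with the longest 3' untranslated region in GENCODE M21 (GRCm38) was used for each gene. Grm2, Grm4 and Grm7 held 1 match each, and Grm3, Grm5 and Grm8 held 0. The windows around these matches are shown because the called receptors both hold one, as does Grm7, which was not called; capitals mark the word.
Grm2, chr9:106644004-106644033, minus strand: ttctgcaccacaTGCATGcagtgcccacag
Grm4, chr17:27426375-27426404, minus strand: ctgtctctgctcTGCATGtgttgtctgttt
Grm7, chr6:111566828-111566857, plus strand: tgatctttggaaTGCATGccggtaatgtat
The regions searched measured 1901 nt in Grm2, 885 nt in Grm4 and 1163 nt in Grm7, against 4038 nt in Grm5, 581 nt in Grm8 and 227 nt in Grm3. Of expressed genes with a 3' untranslated region within 20% of the same length, 48.3% held the word at the length of Grm2, 25.8% at that of Grm4 and 32.6% at that of Grm7. At the length of Grm5, where no match was found, 76.6% held it. Across the 11079 expressed genes with a usable annotation, 37.9% held the word, and the share was 36.2% of genes called higher and 47.9% of genes called lower. The shorter word GCATG, counted also where it lies within TGCATG, occurred 1 time each in Grm2, Grm5 and Grm8. It occurred 2 times each in Grm4 and Grm7 and 0 times in Grm3. A match describes the letters only, and introns were not searched.

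The promoters of the group II pair, of which Grm2 was called and Grm3 was not, are shown as the 250 bases before the transcription start in RefSeq (GRCm38.p6). RefSeq promoters were at hand for 4 of the 6 receptors, and not for Grm4 and Grm5. Capitals mark GGGCGG, the GC box.
Grm2, chr9:106656110-106656359, minus strand: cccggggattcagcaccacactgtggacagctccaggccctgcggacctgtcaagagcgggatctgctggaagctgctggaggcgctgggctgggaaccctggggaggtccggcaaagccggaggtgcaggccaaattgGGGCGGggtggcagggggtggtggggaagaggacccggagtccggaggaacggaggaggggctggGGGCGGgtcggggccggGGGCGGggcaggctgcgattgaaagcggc
Grm3, chr5:9725353-9725602, minus strand: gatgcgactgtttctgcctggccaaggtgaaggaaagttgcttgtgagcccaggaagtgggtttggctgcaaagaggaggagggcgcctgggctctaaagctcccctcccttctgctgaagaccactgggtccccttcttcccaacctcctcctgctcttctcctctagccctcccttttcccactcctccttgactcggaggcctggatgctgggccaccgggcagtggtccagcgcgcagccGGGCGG
Both strands were searched. The Grm2 window held GGGCGG 3 times and the Grm3 window held it 1 time, and 32.9% of 27025 promoter windows of this length held it. G and C made up 71.2% of the Grm2 window and 62.4% of the Grm3 window, against a median of 52.0%. The cyclic AMP response element TGACGTCA, its core TGACG, the AP-1 word TGANTCA and the Egr word GCGNGGGCG were in neither window, and were held by 1.62%, 17.9%, 6.87% and 4.65% of all windows.

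The genes through which these receptors act were counted next, in 7 lists with 127 expressed genes. Of these, 10 rose, 6 fell and 111 did not pass, so 12.6% were called, beside 7.1% of all expressed genes (4.69% higher and 2.41% lower). At a q of 0.01 the count was 10 (5 higher and 5 lower), or 7.87%, beside 4.79% of all expressed genes. The median log2 ratio of the 127 genes was 0.05.

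The proteins that hold the receptors at the synapse had the largest share of calls among these lists, 4 of 18. Grasp, the gene of the scaffold tamalin that binds group I receptors, had 42.8 FPKM in Nes-cKO and 20.8 FPKM in wildtype, with q = 0.00152 in the authors' deposited table. Homer1, whose long forms tie Grm5 to the postsynaptic density and whose short form uncouples it, had 32.4 FPKM in Nes-cKO and 16.6 FPKM in wildtype, with q = 0.0028 in the authors' deposited table. These levels are for the whole Homer1 gene, so they do not show which of its forms rose. The Homer1 paralog Homer3 rose to 17.5 FPKM in Nes-cKO, against 12.3 FPKM in wildtype, with q = 0.0473 in the authors' deposited table. Homer2 fell to 5.85 FPKM in Nes-cKO, against 7.50 FPKM in wildtype, with q = 0.0436 in the authors' deposited table. Both Homer2 and Homer3 lie close to the threshold, and neither passed a q of 0.01. The log2 ratios of this list had a median of 0.09.

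Among kinases, arrestins and RGS proteins, which end receptor and G-protein signalling, 3 of 24 genes rose and none fell. Rgs2, which acts on Gq, had 19.6 FPKM in Nes-cKO and 7.88 FPKM in wildtype, with q = 0.00152 in the authors' deposited table. Rgs4, which acts on Gq and Gi and dampens group I receptor signalling, had 81.1 FPKM in Nes-cKO and 45.0 FPKM in wildtype, with the same q in the authors' deposited table. Rgs10 had 29.3 FPKM in Nes-cKO and 21.9 FPKM in wildtype, with q = 0.0296 in the authors' deposited table. Receptor kinases and arrestins did not pass, with Adrbk1 at 49.2 and Arrb1 at 34.7 FPKM in Nes-cKO, against 53.3 and 29.9 FPKM in wildtype, and were named with their values known. This list had a median log2 ratio of 0.12.

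Downstream of group I receptors, 1 of 19 genes rose and 2 fell. Trpc6, a diacylglycerol-gated cation channel gene, had 2.71 FPKM in Nes-cKO and 5.39 FPKM in wildtype, with q = 0.00152 in the authors' deposited table. Prkca, a protein kinase C gene, had 24.1 FPKM in Nes-cKO and 33.6 FPKM in wildtype, with q = 0.0039 in the authors' deposited table. Dgkz, whose kinase removes diacylglycerol, had 150 FPKM in Nes-cKO and 117 FPKM in wildtype, with q = 0.034 in the authors' deposited table. Downstream of group II and III receptors, 1 of 22 genes rose and 1 fell. Adcy1, a calcium-stimulated adenylyl cyclase, had 48.7 FPKM in Nes-cKO and 90.1 FPKM in wildtype, with q = 0.00152 in the authors' deposited table. Kcnj6, a potassium channel gene whose product Gi and Go subunits open, had 18.6 FPKM in Nes-cKO and 13.9 FPKM in wildtype, with q = 0.0187 in the authors' deposited table. Medians of these lists were 0.05 and 0.03 on the log2 scale.

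Of 18 genes that supply or clear glutamate and the Grm3 agonist N-acetylaspartylglutamate (NAAG), 1 rose and 2 fell. Slc17a7, the vesicular glutamate transporter of hippocampal excitatory neurons, had 490 FPKM in Nes-cKO and 373 FPKM in wildtype, with q = 0.0195 in the authors' deposited table. Glul, the glutamine synthetase of astrocytes, had 313 FPKM in Nes-cKO and 461 FPKM in wildtype, with q = 0.00152 in the authors' deposited table. Nat8l, which makes the NAAG precursor N-acetylaspartate, had 25.1 FPKM in Nes-cKO and 36.5 FPKM in wildtype, with the same q in the authors' deposited table. The median log2 ratio of this list was -0.04.

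None of 20 genes of receptor-dependent long-term depression passed the authors' Cuffdiff test, with 3 at an unadjusted p below 0.05. Its most abundant members were Camk2a, a calcium-activated kinase, at 668 FPKM in Nes-cKO and 786 FPKM in wildtype, and Eef2, a translation elongation factor, at 311 and 298 FPKM. The median of this list was -0.02. Of 6 expressed genes for other class C receptors, the superfamily that holds the metabotropic receptors, 1 rose and 5 did not pass. Gprc5c, an orphan receptor gene, had 2.55 FPKM in Nes-cKO and 1.15 FPKM in wildtype, with q = 0.00152 in the authors' deposited table, and the median of the list was 0.19.

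**Figure D3:**
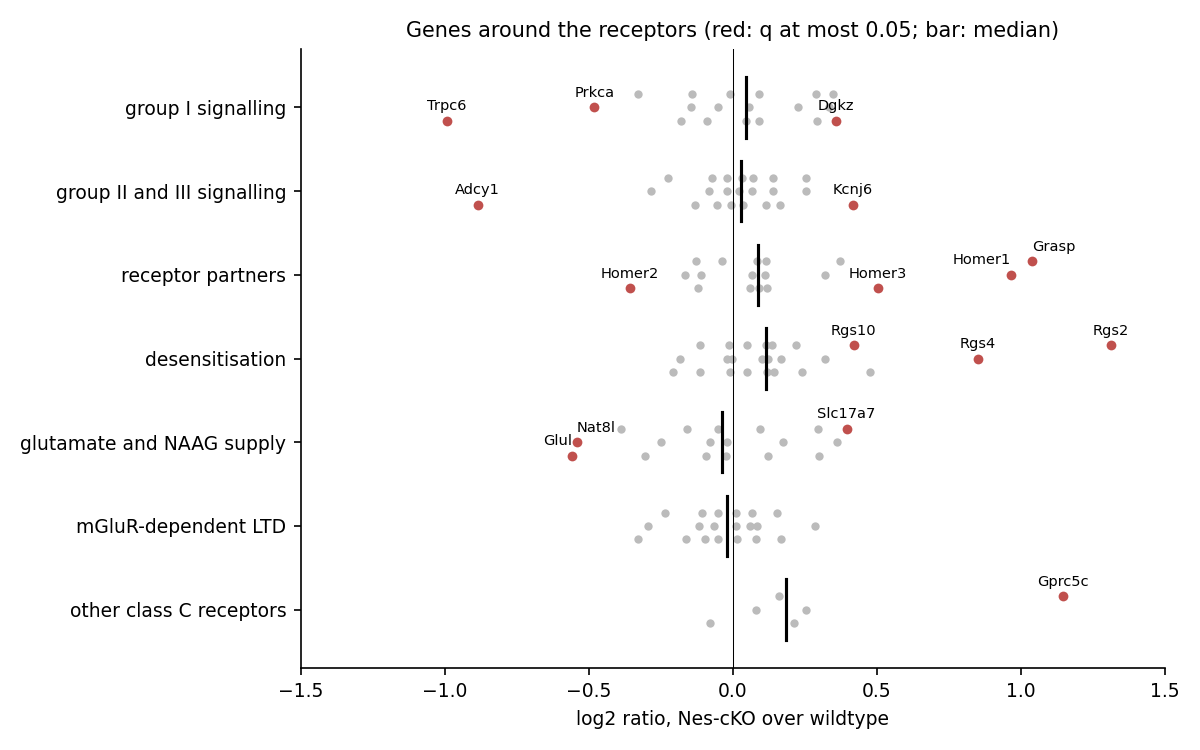
Change in Nes-cKO relative to wildtype on the log2 scale (horizontal axis) for genes of the 7 lists around the receptors that were expressed. Each point is 1 gene, red points passed a q of 0.05 and black bars are list medians. The medians lie between -0.04 and 0.19, and the called genes lie on both sides of 0 in the signalling, partner and supply lists.

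Although the receptors had no listed exon, 5 genes of these lists held 6 listed cassette exons. Inclusion below is the share of transcripts that contain the exon, as the authors' inclusion ratio in percent. Their junction reads, pooled over the mice of a genotype, were compared with Fisher's exact test (two-sided, Benjamini-Hochberg adjustment over the 249 exons), a comparison of pooled reads that says nothing about variation between mice. Every exon tested was listed because its inclusion differed between the same groups, so the adjusted p-values are not calibrated and are descriptive only. Of all 249 listed cassette exons 24.1% passed this test in the direction listed (9.24% with higher and 14.9% with lower inclusion in Nes-cKO), and of the 6 exons 2 did.

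In Itpr1, the calcium release channel downstream of Gq, a 45 nt exon (mm9 chr6:108315293-108315337) had 76.2% inclusion in Nes-cKO and 90.1% in wildtype. Its junction reads gave 75.0% of 224 reads in Nes-cKO (95% Wilson interval 68.9% to 80.2%) and 89.7% of 223 reads in wildtype (85.0% to 93.0%), with an adjusted p of 0.00075 by Fisher's exact test. In Grip1, which encodes a PDZ scaffold of glutamate receptors, a 45 nt exon (mm9 chr10:119487288-119487332) had 27.5% inclusion in Nes-cKO and 52.2% in wildtype. Its junction reads gave 25.2% of 103 reads in Nes-cKO (17.8% to 34.4%) and 47.9% of 94 reads in wildtype (38.1% to 57.9%), with an adjusted p of 0.00829 by Fisher's exact test. With the lower of the 2 inclusion junctions in place of their mean, the adjusted p of the Grip1 exon was 0.0729. These intervals cover counting error only, and neither they nor the adjusted p-values allow for the selection of the listed exons.

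The other 4 exons did not pass. A 115 nt exon of the translation kinase gene Rps6kb1 had 26.6% inclusion in Nes-cKO and 42.3% in wildtype, with an adjusted p of 0.0526 by Fisher's exact test. The Homer1 exons of 157 nt and 36 nt were listed at 65.5% and 77.9% in Nes-cKO, against 92.8% and 94.2% in wildtype. Their junction reads gave 96.0% and 94.7% in Nes-cKO, against 97.5% and 95.7% in wildtype. An 878 nt exon of the potassium channel gene Kcnj9 was listed at 73.4% in Nes-cKO and 62.0% in wildtype, while its junction reads gave 97.9% and 99.0%. The authors' ratio thus lay well below the junction reads for the Kcnj9 exon in both genotypes and for the Homer1 exons in Nes-cKO. In wildtype the Homer1 ratios lay nearer to the junction reads.

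**Figure D4:**
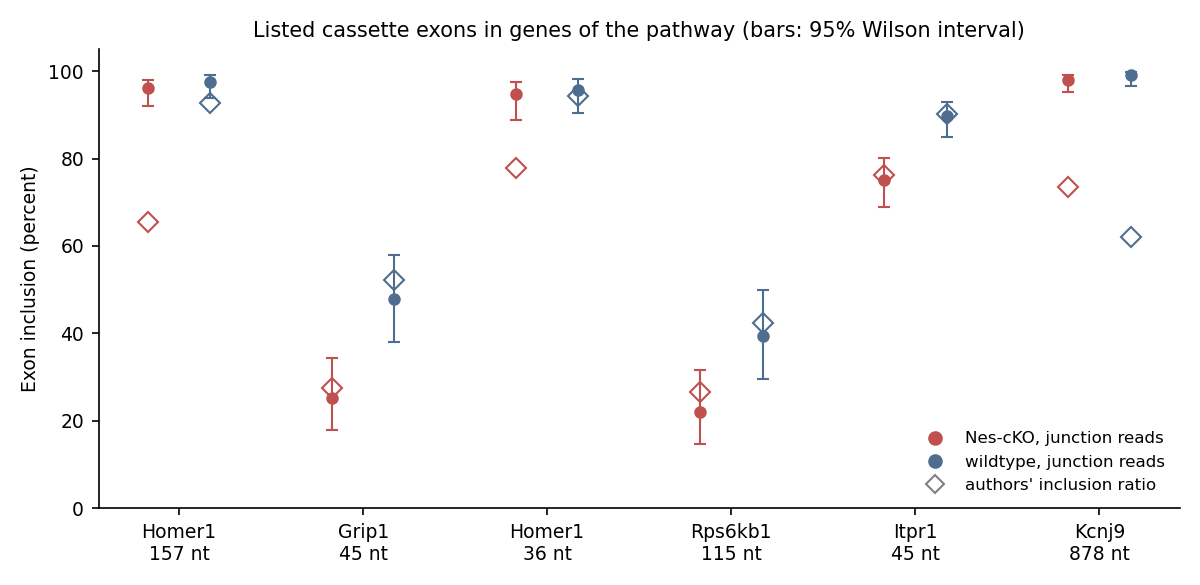
Inclusion in percent (vertical axis) of the 6 listed cassette exons in genes of the receptor pathway, with Nes-cKO left of wildtype for each exon. Filled points are junction reads with 95% Wilson intervals and open diamonds are the authors' inclusion ratios. The intervals of Itpr1 and Grip1 do not overlap between the genotypes. The Kcnj9 diamonds of both genotypes and the Nes-cKO diamonds of Homer1 lie well below the junction reads, while the wildtype diamonds of Homer1 lie nearer to them.

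Some markers of the cells and tissues that express the called receptors were called as well, not all in the direction of the receptors. Their part in the receptor values was not tested. In bulk tissue, fewer cells of a type and less RNA per cell cannot be told apart. Sums of levels cover all genes of a marker list and counts cover its expressed genes. Of 11 cerebellar markers, 9 rose and none fell, and the 14 listed summed to 95.9 FPKM in Nes-cKO and 51.8 FPKM in wildtype. Gabra6, a receptor subunit gene of the cerebellar granule cells in which Grm4 is abundant, had 10.5 FPKM in Nes-cKO and 3.51 FPKM in wildtype. Slc6a5, a glycine transporter gene of the cerebellar Golgi cells in which Grm2 is abundant, had 0.169 FPKM in Nes-cKO and 0.0204 FPKM in wildtype without a test by the authors. Of the cerebellar list, Fat2, Car8 and Cbln3 also rose, to 2.14, 6.06 and 11.4 FPKM in Nes-cKO, against 0.611, 2.04 and 3.98 FPKM in wildtype.

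Of 10 dentate granule cell markers, which mark the main hippocampal source of Grm2, none rose, and Tdo2, Pdyn and Sema5a fell. Their sum was 144 FPKM in Nes-cKO and 150 FPKM in wildtype, and the granule cell regulator Prox1 had 11.9 FPKM in Nes-cKO and 10.3 FPKM in wildtype (q = 0.514 in the authors' deposited table). Cajal-Retzius cells are another population with Grm2, and of their 3 expressed markers Reln and Calb2 rose. The 8 listed summed to 53.7 FPKM in Nes-cKO and 38.2 FPKM in wildtype. Without Reln and Calb2, which are also interneuron markers, the sum was 4.10 FPKM in Nes-cKO and 3.81 FPKM in wildtype. None of the 5 markers below 1 FPKM passed: Trp73 stood at 0.616 FPKM in Nes-cKO and 0.798 FPKM in wildtype, and the other 4 stood higher in Nes-cKO. Of these, Lhx1 had 0.377 FPKM in Nes-cKO and 0.195 FPKM in wildtype (q = 0.0979 in the authors' deposited table), and Nhlh2 had 0.769 and 0.584 FPKM. Ebf3 had 0.263 FPKM in Nes-cKO and 0.233 FPKM in wildtype, and Lhx5, which the authors did not test, had 0.129 and 0.0769 FPKM. Astrocytes can hold Grm3 and Grm5, and of their 12 markers Gfap and Aqp4 rose and Glul fell, and the sum was 1386 FPKM in Nes-cKO and 1495 FPKM in wildtype. Without Glul the astrocyte sum turned, at 1073 FPKM in Nes-cKO and 1034 FPKM in wildtype.

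Other marker lists moved in part. Of 14 interneuron markers Npy, Calb2 and Reln rose and none fell, with sums of 1001 FPKM in Nes-cKO and 897 FPKM in wildtype. Of 12 CA1 to CA3 pyramidal cell markers Grik4 rose and Spink8, Fibcd1 and Cpne4 fell, with sums of 344 and 377 FPKM in the same order. Of 11 neocortical markers 3 rose, among them Rprm and Ctgf, and Rasgrf2 and 6330527O06Rik (Lamp5) fell, with sums of 129 and 107 FPKM. Of 8 thalamic and habenular markers Zic1 and Calb2 rose and 3 fell, among them Lhx9 and Prkcd, with sums of 66.5 and 58.3 FPKM, and Gbx2 and Pou4f1 were below 0.1 FPKM in both genotypes. The interneuron, neocortical and thalamic sums each turned without the gene that differed most. Without Npy the interneuron sum was 807 FPKM in Nes-cKO and 819.7 FPKM in wildtype. Without Rprm the neocortical sum was 82.4 FPKM in Nes-cKO and 91.2 FPKM in wildtype. Without Calb2 the thalamic and habenular sum was 24.8 FPKM in Nes-cKO and 29.4 FPKM in wildtype, and without Zic1 as well it was 17.4 and 25.5 FPKM. Of 12 oligodendrocyte markers 10 fell and none rose, with sums of 1242 FPKM in Nes-cKO and 1819 FPKM in wildtype, led by Mal, Mobp, Trf and Mbp. Among 9 oligodendrocyte precursor markers the authors' Cuffdiff test called none, with 1 at an unadjusted p below 0.05 and with Olig1 and Sox10 at 32.1 and 10.3 FPKM in Nes-cKO, against 34.2 and 12.7 FPKM in wildtype. It called none of 12 microglia markers either, with 0 at an unadjusted p below 0.05 and with Ctss at 36.2 FPKM in Nes-cKO and 42.8 FPKM in wildtype. Median log2 ratios were 1.37 for cerebellar, 0.53 for Cajal-Retzius, 0.18 for interneuron and 0.08 for neocortical markers. They were -0.04 for astrocyte and for microglia, -0.07 for oligodendrocyte precursor, -0.08 for pyramidal, -0.13 for dentate granule, -0.32 for thalamic and habenular and -0.52 for oligodendrocyte markers, beside 0.03 for all expressed genes.

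**Figure D5:**
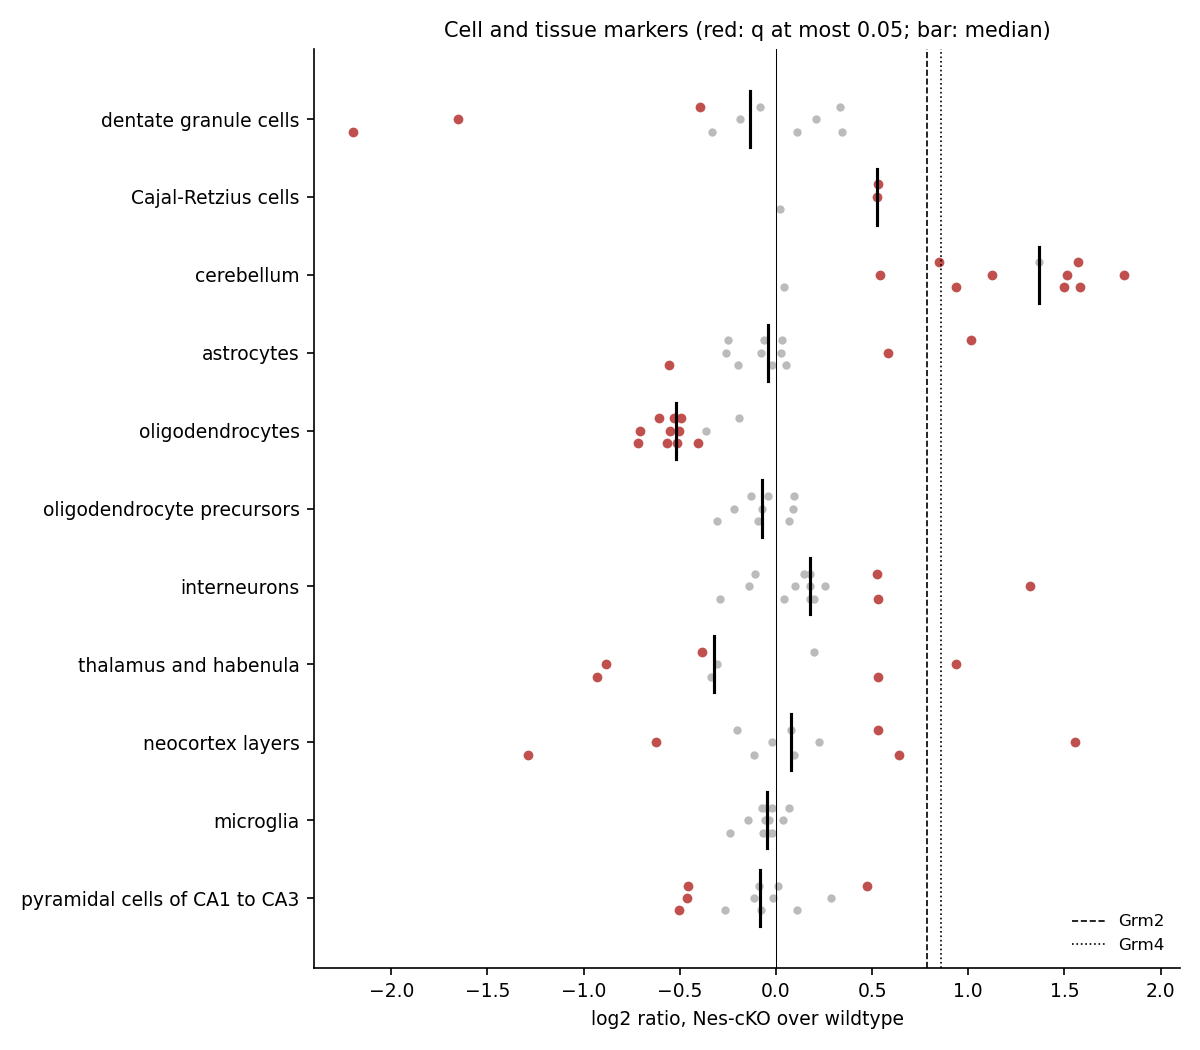
Change in Nes-cKO relative to wildtype on the log2 scale (horizontal axis) for expressed cell and tissue markers, 1 point per gene, with red points past a q of 0.05 and black bars at list medians. The dashed and dotted lines are Grm2 at 0.78 and Grm4 at 0.86. The cerebellar median of 1.37 lies to the right of both lines and the oligodendrocyte median of -0.52 is the lowest of the 11.

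The nearest expressed genes beside the receptors on the chromosome were not called, and their distances ran from 2.64 to 4300 kb. The nearest expressed genes on either side of Grm2 were Tex264, 2.64 kb away, at 38.2 FPKM in Nes-cKO and 32.0 FPKM in wildtype (q = 0.281), and Rrp9, 159 kb away, at 9.62 and 9.63 FPKM (q = 0.999), both q-values from the authors' deposited table. On one side of Grm4 lay Lemd2, 218 kb away, at 8.88 FPKM in Nes-cKO and 8.20 FPKM in wildtype. Its q was 0.893 in the authors' deposited table. The only gene of the table that overlapped a receptor was Mir592 within Grm8, listed at 0 in both genotypes.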

How the data were processed

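Stranded mRNA libraries were sequenced from both ends, per the labels' protocols. CASAVA, Cufflinks and Cuffdiff with mm9 come, without versions, from the submitters' processing notes, and the aligner is not given in the sources used here. FPKM values, test scores, p-values and q-values are the authors', with 1 value per gene and genotype, per the file headers. The log2 ratio was computed here with no pseudocount, and no test of expression was run. The splicing tables hold inclusion ratios (fractions) and whole junction read counts deposited by the authors. The rounded mean of both inclusion junctions was set against skipping reads. Fisher's exact test was tried on simulated reads in which both inclusion junctions had the same count. That simulation tested neither the averaging of unequal junctions nor exons selected for a difference.

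The receptors and the lists were chosen with earlier results of these data known. The rule named all 6 receptors, Rbfox1, in each list at most 4 changed genes with the greatest log2 ratios, and in lists without a change both genes with the highest mean FPKM. Prox1, Slc6a5, the Cajal-Retzius markers below 1 FPKM, Adrbk1, Arrb1 and the chromosomal neighbours fell outside it and were named with their values known. Of the genes the rule or the neighbour search gave, 2 are not reported here. Overlapping lists share genes such as Calb2. Gene loci are in mm9 from base 1, and sequences are in GRCm38, so positions of the 2 builds were not combined. Python 3.11.15, numpy 2.4.6, pandas 2.3.3, scipy 1.17.1 and matplotlib 3.10.9 were used.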

Additional observations from a re-analysis of the deposited data

How the results depend on the processing

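The calls of Grm2 and Grm4 held, and the other 4 receptors stayed uncalled, at a q of 0.01 and of 0.10, with Benjamini-Hochberg adjustment over genes that reached 1 FPKM, and at an unadjusted p of 0.05: the count was 2 each time. With a pseudocount of 1 FPKM the log2 ratio of Grm4 was 0.69, against 0.86 without one, since a pseudocount shrinks ratios of low values by construction. The other receptor ratios moved by at most 0.1 under both pseudocounts and under centring on the median. Of the pathway genes, 16 were called at a q of 0.05, 10 at 0.01, 21 at 0.10, 16 without a level filter and 15 at an FPKM of at least 5. With the lower inclusion junction, 1 pathway exon passed, against 2 with the mean and 2 with the higher junction. The junction choices and the next were added after seeing the data: 4 of 11 marker sums turned without the gene that differed most, and 1 of 6 without genes shared between marker lists. Single replicates could not be left out, because the files give group values only. No paired analysis was possible because the columns carry no replicate numbers. Read depth per library is unknown.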

Other observations

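The called receptors are the genes with the shortest loci of the 6, a pattern noticed after the values were seen. Grm2 spans 11.6 kb and Grm4 80.9 kb in mm9, while Grm3, Grm5, Grm7 and Grm8 span 240 to 922 kb. Across genes that reached 1 FPKM, the share called higher was 4.82% for loci of up to 20 kb, 4.27% from 20 to 100 kb, 5.56% from 100 to 200 kb and 5.32% above 200 kb. The share called lower was 2.71%, 1.92%, 2.41% and 3.62% in the same order.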
